A study of Mus musculus with 9 samples.

Results

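The cytosolic ribosomal protein genes were examined in the total RNA of mouse macrophages, as 79 genes out of 13205 listed in the comparison of both forms of tristetraprolin. They were chosen by symbol alone (Rpl or Rps with a number, Rplp0 to Rplp2, and Rpsa), without pseudogenes and without the S6 kinases. Of the 79, 49 encode proteins of the large (60S) subunit and 30 of the small (40S) subunit. Being listed needs reads, so low genes were lost before this choice, and Rpl39l, whose symbol also fits the rule, was in the table of 25494 genes but not listed, at values between 0.297 and 0.316.

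Tristetraprolin (TTP, gene Zfp36) binds AU-rich sequences in inflammatory mRNAs and promotes their decay. All 3 groups were bone marrow-derived macrophages of TTP-deficient mice, immortalized with human c-myc and an activated human Ras, selected as CD11b and F4/80 positive cells, and carrying a tetracycline-inducible vector for GFP, for GFP-TTP (here TTP) or for GFP-TTP-AA, in which the serines that the kinase MK2 phosphorylates are replaced by alanine (here TTP-AA). Every group received doxycycline (1 µg/ml, 6 h) and lipopolysaccharide (LPS, 1 µg/ml, 1 h), and each gave 3 libraries, 9 in all, of RNA depleted of ribosomal RNA. No group went without doxycycline or LPS. The number of separately transduced populations per transgene was not given in the sources used here, so that effects of the transgene and of the line that carries it cannot be told apart.

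The deposited values are the fitted means of the study's own model, that is, a library factor times a term for the replicate number times a term for the group. None of them was 0, and the ratio between groups was the same in every replicate up to a constant. The 3 values of a group therefore carry no scatter from which an error could be computed. The standard errors and p-values of the authors' own comparisons were not used here, so the ratios below are given without error and nothing was tested. Ratios are described beside those of all 13205 listed genes, and a ratio of at least 0.32 on the log2 scale in either direction was counted as past the fold. In bulk RNA a change in the cells present and in RNA per cell cannot be told apart.

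The sums of values ran from 21482954 (TTP replicate 1) to 102613526 (TTP-AA replicate 3). Of 9 macrophage marker symbols 8 were in the table, each with a mean above 100 over the libraries, whereas the summed markers of T cells, B cells, fibroblasts and epithelium each stayed under 6 at their highest, 5.92. Zfp36 was valued at 1744, 1423 and 890 in GFP replicates 1 to 3, 1787, 1447 and 913 in TTP and 2828, 2298 and 1443 in TTP-AA. TTP was thus 0.03 (log2) from GFP, which gives no check of its label, and TTP-AA was 0.69 above GFP.

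Ribosomal proteins are needed in fixed proportion, and their mRNAs are among the most abundant of a growing cell. Most of these mRNAs begin with a C followed by a run of pyrimidines, the terminal oligopyrimidine (TOP) motif, through which translation is coupled to nutrient and mTOR signalling. Several ribosomal proteins also have roles of their own, such as binding Mdm2 or NF-kB.

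The annotated start sites are shown because the TOP motif is the sequence feature that defines this class of mRNA. A start site of RefSeq (GRCm38.p6) matched 59 of the 79 genes by symbol. Of these, 13 (22%) had, exactly at an annotated start, a C followed by at least 4 further pyrimidines (a run of at least 5), compared with 2.97% of all other genes. Starts that are annotated some bases away are not counted by this rule. In the windows below, 10 bases before the start are followed by 20 bases from it, 5′ to 3′ on the gene's strand, and the capitals mark the pyrimidine run.
Rpl15, chr14:18270967-18270996, minus strand: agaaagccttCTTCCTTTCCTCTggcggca
Rpl35, chr2:39005112-39005141, minus strand: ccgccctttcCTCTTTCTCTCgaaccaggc
Rpl35a, chr16:33056472-33056501, plus strand: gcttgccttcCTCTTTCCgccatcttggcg
Rpl38, chr11:114668570-114668599, plus strand: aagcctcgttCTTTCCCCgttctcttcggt
Rps6, chr4:86857348-86857377, minus strand: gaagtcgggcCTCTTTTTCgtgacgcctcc
Rps27, chr3:90213629-90213658, minus strand: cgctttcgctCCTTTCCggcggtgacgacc
Rps21, chr2:180257369-180257398, plus strand: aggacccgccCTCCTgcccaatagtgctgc
The run was longest in Rpl15, with 13 bases, and was 5 bases in Rps21.

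At the level of RNA the genes were high and far from equal. The authors' mean over the 9 libraries had a median of 23018 normalized counts, and per kilobase of transcript a median of 27395, compared with 382 over listed genes with an annotated length. Of the 79 genes, 78 lay above that value. The exception was Rpl3l, a copy of Rpl3 that is known from striated muscle, with a mean of 10.4 counts. Without it, the level per kilobase spanned 40.7-fold, from 2954 for Rpl7l1 to 120156 for Rpl8.

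**Figure D1:**
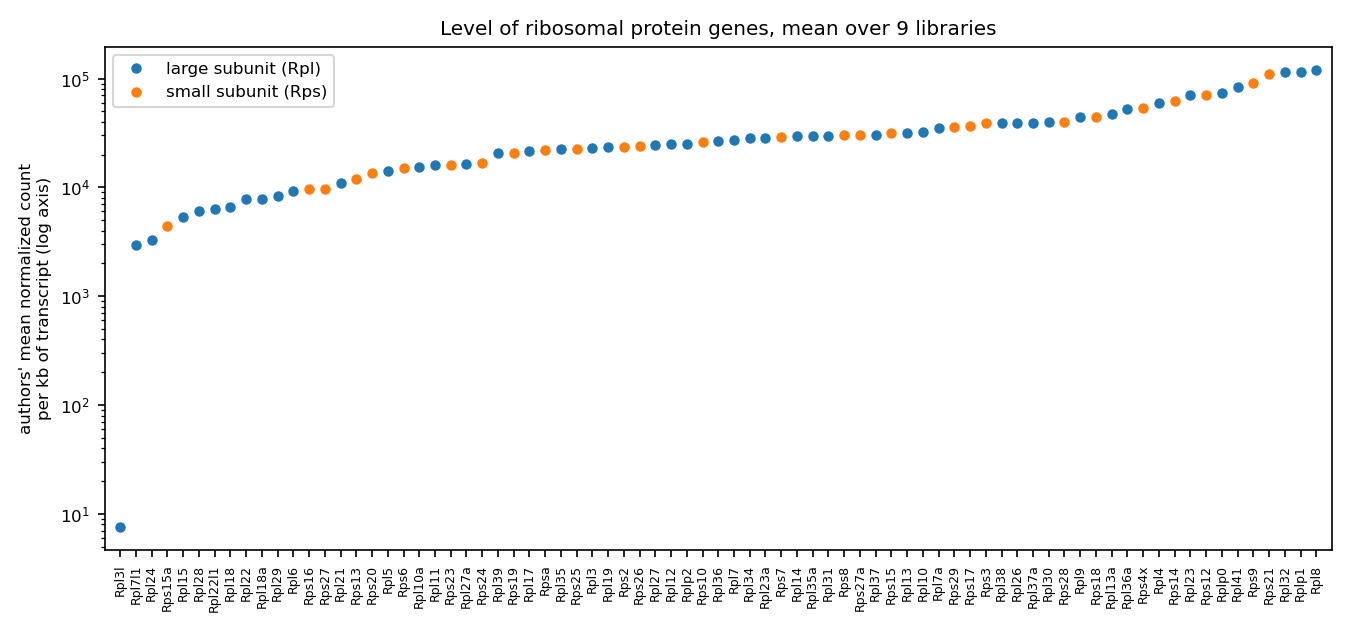
Authors' mean normalized count per kilobase of transcript (log axis) for 77 of the 79 genes in ascending order, with large-subunit genes in blue and small-subunit genes in orange. Rpl3l lies alone at the bottom, and both subunits are spread over the whole range of the others.

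The top of the order per kilobase was formed by Rpl8 (120156), Rplp1 (115754), Rpl32 (115413), Rps21 (111133) and Rps9 (91780). Rplp1 is an acidic protein of the stalk, to which elongation factors bind. The other stalk genes were lower per kilobase, with 74108 for Rplp0 and 25176 for Rplp2. At the bottom, after Rpl3l and Rpl7l1, came Rpl24 (3252), Rps15a (4444) and Rpl15 (5384). No error on these levels is given, so that neighbours in the order cannot be separated. Rps15a has an annotated transcript of 5179 bases, the longest of the class, and its low level per kilobase rests on that length. Long annotated transcripts were also used for Rps20 (3706 bases) and Rpl18 (2989 bases), and their levels per kilobase depend on them in the same way.

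Genes whose symbols mark them as copies were lower per kilobase than the gene they resemble. Rpl22l1 stood at 6340 and Rpl22 at 7822. Rpl7l1 stood at 2954 and Rpl7, an RNA-binding protein of the large subunit, at 27395. Rpl3l stood at 7.55 and Rpl3 at 23035. Per kilobase, Rpl22 and Rpl22l1 were thus the nearest of the 3 pairs. This rests on annotated lengths of 2051 bases for Rpl22 and 552 for Rpl22l1. Before division by length, the means were 16043 for Rpl22 and 3500 for Rpl22l1. They were 31860 for Rpl7 and 7697 for Rpl7l1, whose annotated transcript has 2606 bases. On these means Rpl22 and Rpl22l1 were not the nearest pair.

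Levels of near-identical genes are uncertain in these data. Reads of 50 bases were placed with up to 2 positions kept, and ribosomal protein genes have many processed copies in the genome. Of the 50-base windows of a gene, a median of 64.4% matched a transcript of another annotated gene with at most 2 mismatches. The share exceeded 80% in 23 genes and was at most 20% in 7, among them Rpl3l, Rpl8, Rps15a and Rps3. Across the 78 genes other than Rpl3l the shared percentage and the log2 level per kilobase had a Pearson r of 0.17 and a Spearman rho of 0.15, a description over genes that share the same libraries.

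Together the 79 genes held 5.40% to 7.00% of all values in a library. In GFP they held 5.74%, 7.00% and 6.26% in replicates 1 to 3. In TTP the shares were 5.59%, 6.86% and 6.07%. In TTP-AA they were 5.40%, 6.59% and 5.88%. Replicate 2 was the highest and replicate 1 the lowest in each group, and within a replicate number the order was GFP, TTP, TTP-AA. Fitted means repeat such orders by their form, so their agreement adds nothing.

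**Figure D2:**
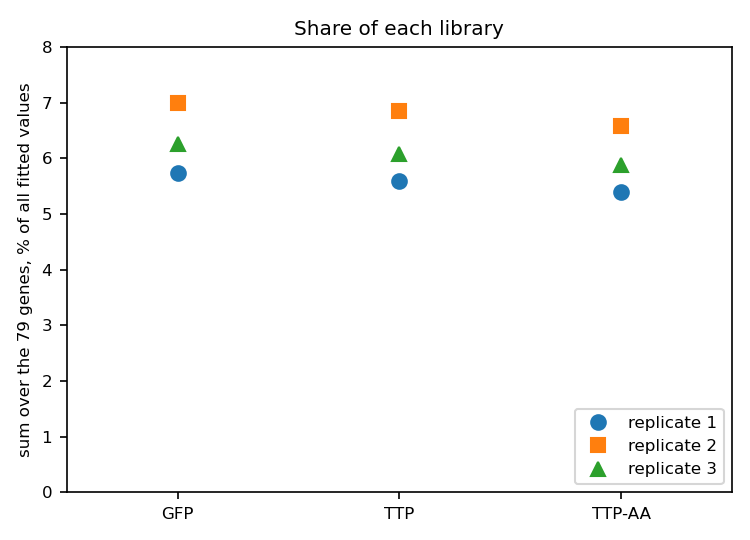
Share of all fitted values held by the 79 ribosomal protein genes in each of the 9 libraries, by group, with a marker shape for each replicate number. The distance between replicate numbers, from 5.40% to 6.59% within TTP-AA, is wider than that between groups of the same number.

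The replicate number went with a larger difference in these genes than the transgene did. Replicate 2 was above replicate 1 by a median of 0.36 (log2, 1.28-fold), and 79 of 79 genes were higher, from 0.017 to 0.55. Replicate 3 was above replicate 1 by a median of 0.15, with 66 genes higher. Over all listed genes these medians were 0.018 and -0.011. The study's model took the replicate partition as the library date. The 3 numbers are the same term in each group by construction, so that their agreement across groups adds nothing.

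This difference was shared by short transcripts. The 715 other listed genes with a transcript under 1 kb had medians of 0.24 for replicate 2 against 1 and 0.15 for replicate 3 against 1. The 77 mitochondrial ribosomal protein genes, which build the separate ribosome of mitochondria, had 0.22 and 0.17. The 18 other mRNAs with a TOP start had 0.11 and 0.10, and 544 other genes with a mean of at least 10000 had 0.11 and 0.082. For replicate 2 against replicate 3 the ribosomal protein genes had a median of 0.23, against 0.074 for the other short transcripts and 0.034 for the mitochondrial ones. The part of transcript length, RNA quality or preparation in this was not tested.

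**Figure D3:**
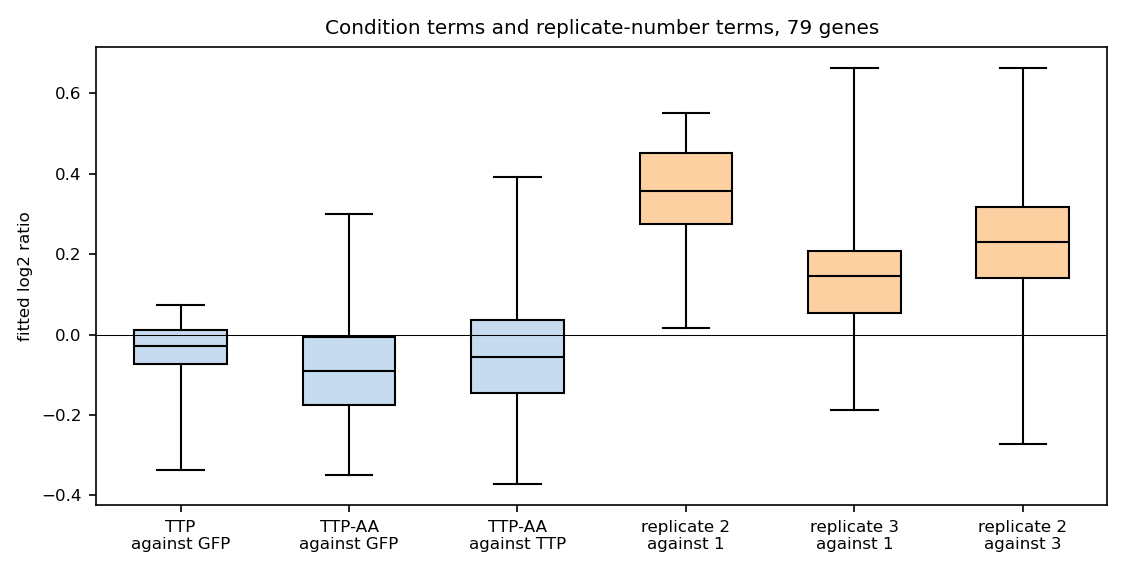
Fitted log2 ratios of the 79 genes for the 3 group comparisons (blue) and for the 3 differences between replicate numbers (orange), where boxes show the quartiles, the line the median and whiskers the lowest and highest gene. The box of replicate 2 against 1, with a median of 0.36, lies above all 3 group comparisons.

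TTP was compared with GFP to see how these mRNAs stood once wild-type TTP was present. The ribosomal protein genes were close to GFP, with a median log2 ratio of -0.029 and an SD over genes of 0.080. Within 0.1 of 0 lay 65 of 79, beside 5350 of all 13205 listed genes. Of the 79, 26 were higher and 53 lower. No gene was past the fold upward, where 4.47% of all listed genes were. A single gene, Rps26, was past it downward, where 8.10% of all listed genes were. All listed genes had a median of -0.0018 and an SD of 0.28. The 544 other genes with a mean of at least 10000 had an SD of 0.19, with 2.76% past the fold upward and 4.23% downward.

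The lowest of them were Rps26, Rpl41, Rps15, Rps27 and Rps12. Rps26 (ENSMUSG00000025362, chromosome 10, 128624534 to 128626747), a protein of the small subunit near the mRNA exit, had values of 17856, 21304 and 16452 in GFP replicates 1 to 3, 14169, 16784 and 13074 in TTP and 15668, 18621 and 14431 in TTP-AA. Its TTP values lay below those of GFP by 0.34 on the log2 scale, the same at each replicate number by construction. The ranges of both groups overlapped through the replicate term. Rpl41, a peptide of the large subunit and the shortest ribosomal protein, had 40614, 51451 and 45579 in GFP, 33372, 41972 and 37505 in TTP and 40513, 51121 and 45447 in TTP-AA. Here TTP stood apart by -0.29, and TTP-AA was at -0.0057 against GFP. Rps15 had a ratio of -0.29, Rps27 of -0.23 and Rps12 of -0.21. At the upper end stood Rpl7a (0.073), Rpl29 (0.060), Rps27a (0.059) and Rpsa (0.056), the last also known as the laminin receptor.

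TTP-AA was compared with GFP to see the same for the form that escapes phosphorylation. The genes had a median log2 ratio of -0.089 with an SD of 0.12, and 60 of 79 were lower and 19 higher. In the 7 genes with at most 20% of their windows shared with another gene the median was 0.0075 here and 0.014 in TTP-AA against TTP, so that the direction turned. Of the 79, 40 lay within 0.1 of 0, beside 4465 of all 13205 listed genes. One gene, Rpl22l1, was past the fold downward, where 9.63% of all listed genes were, and no gene was past it upward, where 11.0% were. All listed genes had a median of 0.0016 and an SD of 0.32. For the 544 other genes with a mean of at least 10000 the SD was 0.22, with 4.96% past the fold upward and 4.23% downward.

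Rpl22l1 (ENSMUSG00000039221, chromosome 3, 28805436 to 28807424) had 3457, 4270 and 3841 in GFP, 3296, 4043 and 3667 in TTP and 2717, 3343 and 3017 in TTP-AA. TTP-AA was below both other groups, at -0.35 against GFP, the same at each replicate number by construction. Its paralogue Rpl22 had -0.094 in the same comparison. Rps27a followed with -0.31, Rps21 with -0.30 and Rpl37 with -0.29. Other listed genes within 10 Mb on each side had medians of -0.12 around Rpl22l1, -0.11 around Rps27a, -0.23 around Rps21 and -0.16 around Rpl37. The highest with a mean of at least 100 included Rpl24 (0.17), Rps29 (0.16) and Rpl35a (0.064), none past the fold.

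The direct comparison of TTP-AA with TTP asks what the loss of the phosphorylation sites changed. The genes had a median of -0.056 and the widest spread of the 3 comparisons, with an SD of 0.14, against 8.3e-05 and 0.42 over all listed genes. Of the 79, 29 were higher and 50 lower in TTP-AA. Rps27a was past the fold downward, where 12.1% of all listed genes were, and Rpl3l was past it upward, where 16.1% were. Among the 544 other genes with a mean of at least 10000, 10.5% were past it downward and 12.1% upward, with an SD of 0.29. This comparison shares its libraries with both others, so that the 3 are not independent. With the fold set at 1.1, 7, 29 and 34 of the 79 genes were past it in either direction in TTP against GFP, TTP-AA against GFP and TTP-AA against TTP, beside 46.5%, 55.1% and 61.5% of all listed genes. At 1.5-fold the counts were 0, 0 and 0, beside 3.87%, 6.30% and 9.86%.

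Rps27a (chromosome 11, 29545846 to 29548109) encodes a small-subunit protein fused to ubiquitin. Its values were 20767, 26665 and 28250 in GFP, 21672, 27628 and 29524 in TTP and 16738, 21408 and 22760 in TTP-AA. TTP-AA was the lowest, at -0.37 against TTP, and TTP was slightly above GFP. By construction this order is the same at each replicate number. Rpl22l1 and Rps21 followed, each with -0.28, and Rps16 with -0.27. Other listed genes within 10 Mb on each side had medians of -0.18 around Rps27a, 0.046 around Rpl22l1, -0.25 around Rps21 and -0.014 around Rps16. Rpl3l reached 0.39 from values of 9.1, 9.2 and 8.5 in TTP and 11.9, 12.1 and 11.1 in TTP-AA, which is a difference of a few counts in a gene whose mean is 10.4, where the next lowest member has 2202. Among members with a mean of at least 100 the highest were Rpl41 (0.28), Rpl24 (0.27), Rps15 (0.21) and Rps29 (0.21). Rpl24, a large-subunit protein at the interface with the small one, had 2027, 2455 and 2042 in GFP, 1891, 2274 and 1908 in TTP and 2276, 2746 and 2293 in TTP-AA.

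**Figure D4:**
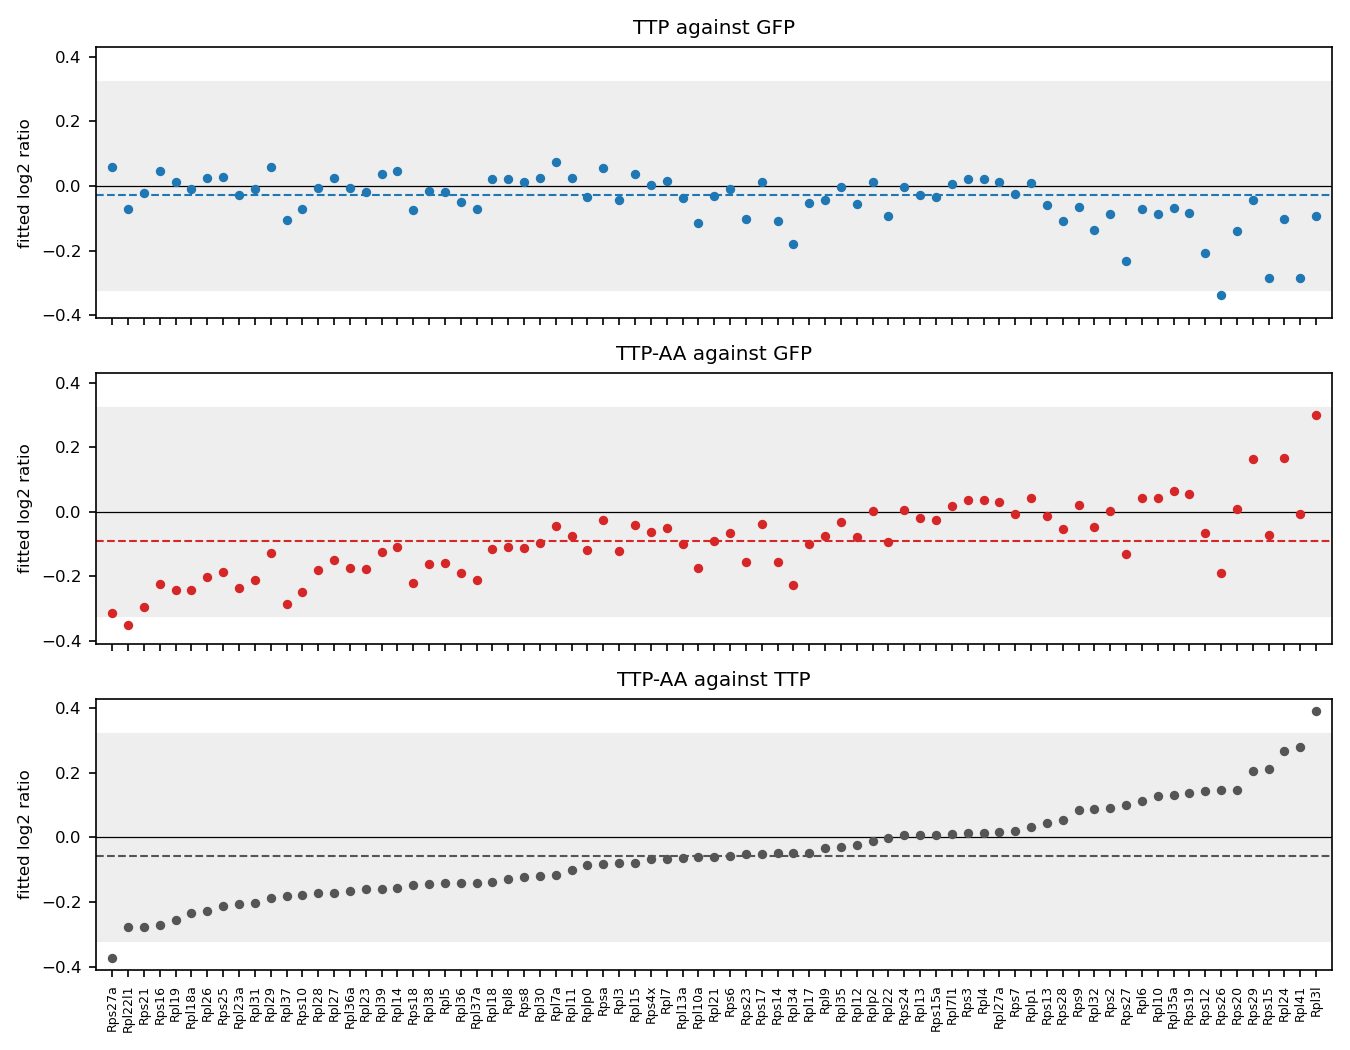
Fitted log2 ratio of 77 of the 79 genes in the 3 comparisons, in the order of TTP-AA against TTP, with the grey band marking ratios under 0.32 in size and the dashed line the median of all 79. Nearly all points lie in the band, with Rps26, Rpl22l1, Rps27a and Rpl3l outside it in 1 comparison each.

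Rps3, Rpl13a, Rpl5, Rpl11, Rpl23, Rps7 and Rps6, members known for roles in signalling or outside the ribosome, were all within the fold in the 3 comparisons. Rps3, a partner of NF-kB p65, had 62445, 85216 and 72643 in GFP, 63497, 86029 and 73972 in TTP and 64101, 87134 and 74538 in TTP-AA, and its 3 ratios lay between 0.014 and 0.036. Rpl13a, known from a complex that silences inflammatory mRNAs in interferon-treated myeloid cells, had -0.036 for TTP against GFP and -0.10 for TTP-AA against GFP. Rpl5 and Rpl11, which with 5S rRNA form the particle that binds Mdm2, had -0.16 and -0.076 in TTP-AA against GFP. The other Mdm2 binders, Rpl23 and Rps7, had -0.18 and -0.0069. Rps6, the target of the S6 kinases, had -0.010 and -0.067 against GFP in TTP and TTP-AA. Of members with close relatives, Rpl10 had -0.086, 0.042 and 0.13 in TTP against GFP, TTP-AA against GFP and TTP-AA against TTP, Rpl10a had -0.11, -0.18 and -0.062, and Rpl39 had 0.036, -0.12 and -0.16. The stalk genes Rplp0, Rplp1 and Rplp2 had -0.12, 0.041 and 0.0012 in TTP-AA against GFP.

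The small-subunit genes had medians of -0.039, -0.059 and 0.012 in TTP against GFP, TTP-AA against GFP and TTP-AA against TTP. The large-subunit genes had -0.018, -0.10 and -0.079. The difference between subunits was not tested.

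The ratios of the ribosomal protein genes varied in part with the chromosome on which each gene lies. For each gene the ratio was set beside the median of the other listed genes of its chromosome, over 19 chromosomes that hold members. Pearson's r across the 79 genes was 0.75 for TTP against GFP, 0.54 for TTP-AA against GFP and 0.59 for TTP-AA against TTP, with Spearman's rho of 0.60, 0.52 and 0.52. Genes of 1 chromosome share the same median, and all share the libraries, so these are descriptions with no p. With the median taken only over genes within 10 Mb on each side, r was 0.77, 0.54 and 0.58.

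**Figure D5:**
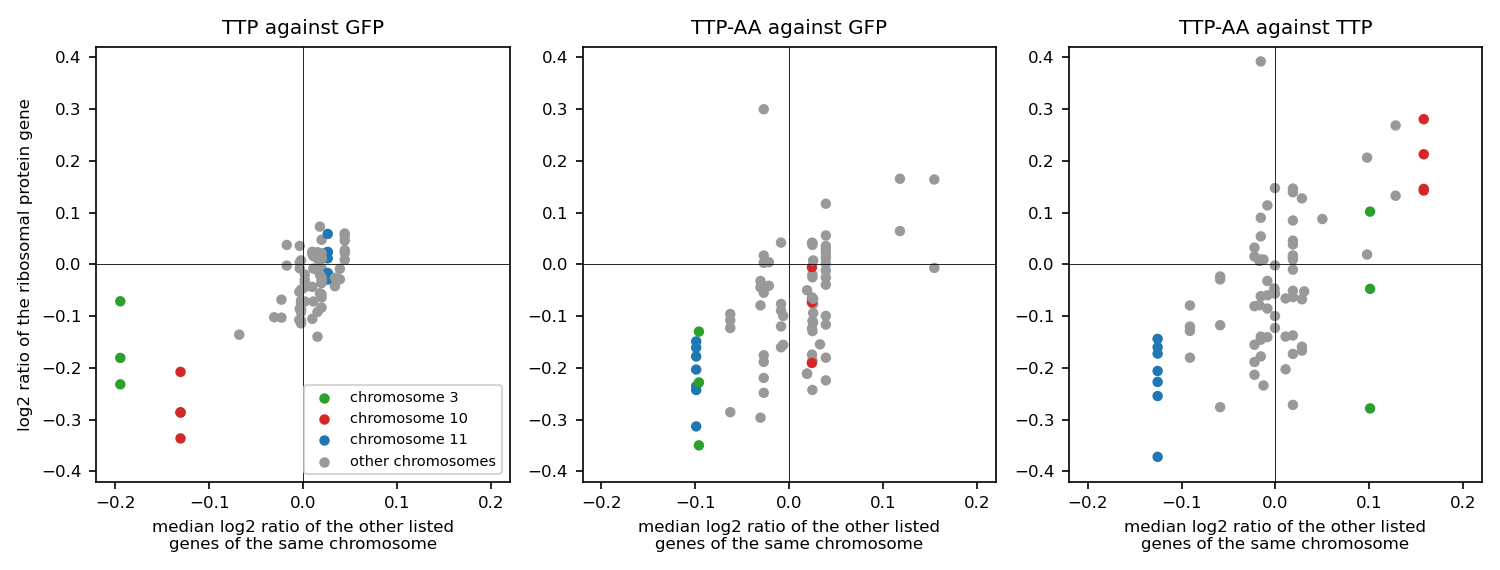
Log2 ratio of each ribosomal protein gene against the median log2 ratio of the other listed genes on its chromosome, with a panel for each comparison and chromosomes 3, 10 and 11 in colour. Genes of chromosome 10 lie at the lower left in TTP against GFP, and those of chromosome 11 at the lower left in TTP-AA against TTP.

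Chromosome 10 holds Rps12, Rps15, Rpl41 and Rps26, which include the 3 lowest genes of TTP against GFP. All 4 were lower in TTP, between -0.34 and -0.21 with a median of -0.29, and the 622 other listed genes of that chromosome had a median of -0.13. In TTP-AA against TTP all 4 were higher, between 0.14 and 0.28, with a median of 0.18 beside 0.16 for the other genes. Rps12 had 0.14 and Rps26 0.15 there. Both comparisons share the TTP libraries.

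Chromosome 3 holds Rpl22l1, Rps27 and Rpl34. Their median in TTP against GFP was -0.18, and that of the 654 other listed genes was -0.19. Chromosome 11 holds Rps27a, Rpl26, Rpl23a, Rpl23, Rpl19, Rpl27 and Rpl38. All 7 were lower in TTP-AA than in TTP, between -0.37 and -0.14 with a median of -0.21, and the 1118 other listed genes had a median of -0.13. On chromosome 16, Rpl35a and Rpl24 had a median of 0.20 in TTP-AA against TTP, beside 0.13 for 406 other genes. In other cases the chromosome and its ribosomal protein genes lay on opposite sides of 0. The 3 genes of chromosome 3 had a median of -0.047 in TTP-AA against TTP beside 0.10 for the other genes. In TTP-AA against GFP the 3 genes of chromosome 1 had a median of -0.21 beside 0.019, and the 4 of chromosome X -0.094 beside 0.024. Over all chromosomes, a gene and the median of its chromosome lay on the same side of 0 for 45, 45 and 54 of the 79 genes in TTP against GFP, TTP-AA against GFP and TTP-AA against TTP.

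When each gene was taken relative to its chromosome, the SD over the 79 genes fell from 0.080 to 0.053 in TTP against GFP, from 0.12 to 0.099 in TTP-AA against GFP and from 0.14 to 0.12 in TTP-AA against TTP. The medians of the 79 genes stayed negative, as they did under every other scaling tried, at -0.043, -0.079 and -0.046. No gene was then past the fold in TTP against GFP. Of the genes past the fold, Rps26 was then at -0.21 in TTP against GFP, Rpl22l1 at -0.25 in TTP-AA against GFP and Rps27a at -0.25 in TTP-AA against TTP, these 3 within the fold. Rpl3l stayed past it in TTP-AA against TTP, at 0.41. Rpl22l1 moved past it in TTP-AA against TTP, at -0.38, and Rpl3l in TTP-AA against GFP, at 0.33. The genes of chromosome 10 remained below their chromosome by a median of -0.16 in TTP against GFP. The chromosome was not uniform, however. Other listed genes within 10 Mb had a median of -0.26 around both Rpl41 and Rps26, -0.14 around Rps12 and -0.10 around Rps15. Whether the lines differ in chromosome copies was not tested.

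Further gene lists of ribosome production were set beside the ribosomal protein genes. Of 24 ribosome biogenesis genes, which make and assemble ribosomes in the nucleolus, 20 were higher in TTP than in GFP with a median of 0.23, and 5 (20.8%) were past the fold upward, beside 4.47% of all listed genes, and 0 downward, beside 8.10%. In TTP-AA against TTP 21 of the 24 were lower, with a median of -0.21 and 2 (8.33%) past the fold, beside 12.1% of all listed genes. Of all 13205 listed genes, 6553 were higher in TTP than in GFP, and 6600 were lower in TTP-AA than in TTP. Ncl, the nucleolar protein nucleolin, had 0.40 in TTP against GFP and -0.71 in TTP-AA against TTP. Fbl, the methyltransferase fibrillarin, had 0.27 and -0.45. In TTP-AA against GFP the median of the list was -0.016, with 1 gene, Rrp9, past the fold upward. The biogenesis genes thus lay farther from 0 than the ribosomal protein genes in both comparisons with TTP, a difference that was not tested.

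The 77 mitochondrial ribosomal protein genes had medians of 0.10, 0.0099 and -0.070 in the 3 comparisons, in the same order. In TTP against GFP 65 of them were higher, beside 6553 of all 13205 listed genes, and 2 (2.60%) were past the fold upward, beside 4.47%. In TTP-AA against TTP 57 were lower, beside 6600 of all 13205. There 9 (11.7%) were past the fold downward, near the 12.1% of all listed genes, and 3 (3.90%) upward, beside 16.1%. The 18 other TOP mRNAs, which encode translation factors and RNA-binding proteins, had medians of 0.0055, -0.036 and -0.052. None of the 18 was past the fold against GFP. In TTP-AA against TTP 2 (11.1%) were past it downward, near the 12.1% of all listed genes. They were Hnrnpa1 (-0.51), a splicing regulator, and Npm1 (-0.38), a nucleolar chaperone. Eef1a1, the main elongation factor, had -0.052, -0.14 and -0.091.

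Of 11 ribosomal subunit genes outside the symbol rule, 8 were listed. Gnb2l1, which encodes the subunit protein Rack1, had 0.016, -0.15 and -0.17. Rps3a1 had -0.20, -0.19 and 0.015, and it also lies on chromosome 3. Rps4l, a copy of Rps4x with a mean of 48.5, was higher in TTP-AA than in GFP by 2.38 and than in TTP by 2.66 on the log2 scale, past the fold in both.

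The 5 genes nearest to the median pattern of the ribosomal protein genes were Rock1, Arfgap1, Cndp2, Dap3 and Cox7c. Their root mean square distances over the 3 group levels (log2) were 0.0007 to 0.0021, among 10345 genes with a mean of at least 100. A pattern of only 3 levels near 0 leaves many genes close to it.

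Pseudogenes named after ribosomal protein genes moved in both directions in TTP-AA, more of them downward. Of 47 listed ones, 33 were lower and 14 higher in TTP-AA against GFP, and 29 and 18 in TTP-AA against TTP. Of all 13205 listed genes, 6552 and 6600 were lower in these 2 comparisons. Of these 47, 19 (40.4%) were past the fold downward in TTP-AA against GFP and 19 in TTP-AA against TTP, beside 9.63% and 12.1% of all listed genes, and 2 were past it downward in TTP against GFP. Upward, 2 were past it in TTP-AA against GFP and 5 (10.6%) in TTP-AA against TTP, beside 11.0% and 16.1% of all listed genes, the highest being Rps12-ps3 with a mean of 30.1 and ratios of 1.34 and 1.47. Their medians were -0.046, -0.25 and -0.27. The most abundant, Rpl14-ps1, had a mean of 5396 and a ratio of -0.39 in TTP-AA against TTP. Rpl13a-ps1 had a mean of 824 and a ratio of -0.93. The values of all 47 together came to 0.745% of those of the 79 genes, and their reads cannot be separated from those of the parent genes with certainty.

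The transcripts of the class were short and poor in the sequences that TTP binds. The median annotated transcript was 835 bases and the median 3′UTR 89 bases, compared with 2937 and 926 for the other listed coding genes. The motif TATTTAT was present in the 3′UTR of 2 genes (2.53%), Rps15a and Rps16, and of 26.9% of the other genes. The shorter ATTTA was present in 18 (22.8%) and 65.0%, respectively, and an ATTTA lies within every copy of TATTTAT. No correction was made for 3′UTR length. The annotated 3′UTRs used were 4728 bases for Rps15a and 516 for Rps16, both above the median of the class. Whether the cells use these 3′UTRs was not tested. Rps16 had 0.047 in TTP against GFP, -0.22 in TTP-AA against GFP and -0.27 in TTP-AA against TTP, the last among the 4 lowest of the class. Rps15a had -0.035, -0.026 and 0.0093. The 18 genes with ATTTA had medians of -0.035, -0.084 and -0.042 in the 3 comparisons, and the 61 without it -0.026, -0.096 and -0.056.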

How the data were processed

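The authors sequenced rRNA-depleted total RNA as 50 base single reads, aligned them to GRCm38 with TopHat keeping up to 2 positions per read, counted them per Ensembl gene and fitted DESeq2 1.6.3 with library date and condition as terms. Their processing notes also list Trim Galore and HTSeq. Whether strand was used in counting was not given in the sources used here. The signal that the authors deposited as normalized counts was tested before use. Once genes and libraries were centred, its log2 values had rank 4 rather than the 8 that measured libraries can reach, and group ratios differed between replicates by at most 2.2e-14, so that it holds fitted means. The 3 deposited comparison tables hold log2 fold changes, their standard errors, Wald statistics and p-values of the authors' own tests, which were not used. Only their identifiers, names and mean values were taken, and 10 repeated rows were left out.

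Groups and replicate numbers came from the sample titles. Libraries were scaled by the median of ratios, taken from genes whose mean reached 10. The log2 ratio of a gene is the mean over 3 replicates of the scaled log2 difference, with a pseudocount of 0. The calculation was tested on simulated data. Since the table carries no scatter, the limma fit foreseen for measured values could not be made. Depth is given only by the sums of fitted values, and no counting interval can be formed. Transcript lengths, 3′UTRs and positions came from GENCODE mouse release 21, per gene from the transcript with the longest coding sequence. Ties went to transcripts without a retained-intron tag, then to the better annotated support level, then to the longer transcript. Windows of 50 bases were matched to all annotated transcripts with bwa 0.7.19 with at most 2 mismatches. Start sites came from RefSeq on GRCm38.p6.

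The genes named were the 4 highest and 4 lowest of each comparison among members with a mean of at least 100, the 5 highest and 5 lowest per kilobase, paralogues, and members with known roles beyond the ribosome. Members and lists were chosen with earlier results of these data known. Genes of chromosomes 3, 10, 11 and 16, the Rps12 and Rps4l values and individual pseudogenes were named after their values were seen. The single genes given medians within 10 Mb were also picked after values were seen. Values of some genes are not reported here. Other scalings, filters, folds and leaving out each replicate were tried as alternatives. Calculations ran in Python 3.11.15 with pandas 2.3.3, scipy 1.17.1 and numpy 2.4.6, and plots in matplotlib 3.10.9.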

Additional observations from a re-analysis of the deposited data

Results flagged for a closer look

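2 genes lay on opposite sides of GFP in the 2 forms and differed between the forms by more than the fold used here. Of all 13205 listed genes, 12.1% were past the fold downward in TTP-AA against TTP and 16.1% upward. The share of all listed genes that also lay on opposite sides of GFP was not computed, so the count of 2 has no background. In both cases the difference was not tested, since the fitted values carry no scatter, and every replicate moves the same way by construction.

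Rps27a was at 0.059 in TTP and at -0.31 in TTP-AA, each against GFP, and so at -0.37 in TTP-AA against TTP on the log2 scale. Relative to the other genes of chromosome 11 the last value was -0.25. A share of 72.4% of its 50-base windows matched transcripts of other genes.

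Rpl3l was at -0.092 in TTP and at 0.30 in TTP-AA, each against GFP, and so at 0.39 in TTP-AA against TTP. Its mean was 10.4 normalized counts, the lowest of the 79 genes, and none of its windows matched another gene.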

How the results depend on the processing

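The median ratio of the 79 genes stayed below 0 in all 3 comparisons under every scaling, filter and pseudocount tried, and after centring per chromosome. The exception was the 7 genes with at least 80% of windows matching no other gene, an alternative chosen after seeing the data, where it was 0.0075 in TTP-AA against GFP and 0.014 in TTP-AA against TTP. In these 7 genes 0, 0 and 1 were past the fold in TTP against GFP, TTP-AA against GFP and TTP-AA against TTP. At 1.1-fold 7, 29 and 34 of the 79 genes (8.86%, 36.7% and 43.0%) were past it in either direction, below the share of all listed genes at that fold in each comparison, and at 1.5-fold 0, 0 and 0. Centring per chromosome, also added after seeing the data, left 0 in TTP against GFP. In TTP-AA against GFP scaling by the sum of all values or on all genes gave 2, as Rps27a then also passed, at -0.32 and -0.33. In TTP-AA against TTP the genes with a mean of at least 100 gave 1, as Rpl3l was left out. The replicate 2 against 1 difference was 0.27 when scaled by the sum of all values, which is itself moved by the highest genes. Leaving out each replicate gave medians of -0.031 to -0.025 in TTP against GFP, -0.090 to -0.088 in TTP-AA against GFP and -0.058 to -0.055 in TTP-AA against TTP, which says nothing about stability because replicates of fitted means are parallel. The cause of the other shifts was not tested. No paired analysis was possible because fitted means leave no residual, and the model behind them already holds the replicate number. The planned match of windows to the genome was not run, since no genome sequence was used here.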
